A study of Mus musculus with 14 samples.

Results

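Homeodomain transcription factors of the dorsal and intermediate neural tube were followed in mouse embryonic stem cells that were turned into neural cells in culture. The set has 10 members, taken by name from the families Pax (Pax3, Pax6 and Pax7), Msx (Msx1, Msx2 and Msx3), Gsx (Gsx1 and Gsx2) and Dbx (Dbx1 and Dbx2). They were found through their Entrez identifiers among the 16060 genes that the authors tested on at least 1 day. Of the 10 members, 8 were tested on both days, Gsx1 at day 10 alone and Gsx2 on neither day. The authors' filter for testing a gene is not stated in these sources, and no level is given for a member that was not tested.

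All cells were of the GLI1-FTA line in the A2Lox.cre background, which takes a single doxycycline-inducible transgene at a fixed landing site. GLI1 is the zinc-finger activator at the end of the Hedgehog pathway. Induced cultures (labelled GLI1 OE) received doxycycline at 500 ng/ml for 48 h, from day 3 to day 5, and control cultures of the same line were untreated. There were 4 induced and 4 control samples at day 5 (D5, neural progenitor cells), and 3 induced and 3 control samples at day 10 (D10, immature neurons, 5 days after washout). The drug and GLI1 changed together and cannot be told apart. The labels do not say whether replicates were separate cultures, so the p-values measure only the spread between these samples. No value per library was used, so neither depth nor overlap between the groups' libraries can be stated.

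In the neural tube, Sonic hedgehog spreads from the notochord and floor plate and sets up ventral cell types at graded doses. Progenitors read this signal through homeodomain factors, several of which repress one another across domain boundaries. Pax3 and Pax7 mark the dorsal wall and are shut off ventrally. Msx genes respond to bone morphogenetic proteins from the roof plate and lie most dorsally. Gsx1 and Gsx2 mark a class of dorsal interneuron progenitors. Pax6 spans the intermediate wall, and Dbx1 and Dbx2 mark progenitors around its middle, which give rise to commissural and inhibitory interneurons.

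All members are known for their homeobox, the stretch of coding sequence for the DNA-binding domain. It is described for 9 of the 10 genes, located in GENCODE M21 transcripts (GRCm38) by its conserved recognition helix, and measured 180 bases, or 60 codons. The lines below give codons 42 to 58 of that stretch, 5′ to 3′ on the coding strand, with codon 50, which shapes binding preference, in capitals. They are shown because Pax3 and Pax7, which are close relatives, had unlike log2 fold changes at D5, a difference described with no test. Any link between these sequences and the response was not tested.

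Pax3: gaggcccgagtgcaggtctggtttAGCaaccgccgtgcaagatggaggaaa
Pax7: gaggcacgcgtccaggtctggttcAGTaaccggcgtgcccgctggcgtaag
Pax6: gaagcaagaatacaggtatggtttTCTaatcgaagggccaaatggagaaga
Msx2: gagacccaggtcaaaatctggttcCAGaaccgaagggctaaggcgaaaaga
Msx3: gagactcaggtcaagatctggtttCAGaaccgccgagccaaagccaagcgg
Gsx1: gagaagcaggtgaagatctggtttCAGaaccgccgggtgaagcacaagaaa
Gsx2: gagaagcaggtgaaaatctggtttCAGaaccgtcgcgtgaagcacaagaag
Dbx1: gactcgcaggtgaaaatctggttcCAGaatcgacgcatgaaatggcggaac
Dbx2: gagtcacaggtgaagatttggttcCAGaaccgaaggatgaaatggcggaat

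The 3 Pax genes carry a serine codon at position 50, and the other 6 genes a glutamine codon. Over the whole homeobox, Gsx1 and Gsx2 shared 86.1% of bases, Pax3 and Pax7 80.6%, Dbx1 and Dbx2 77.2%, and Msx2 and Msx3 76.1%. Pax6 stood further off, at 60.0% with Pax3 and 58.9% with Pax7. Between families the identity ran from 42.8% to 61.1% over 30 pairs of genes, with Gsx1 and Msx2 at the upper end, above Pax6 with either Pax gene. Reads were 50 bases long, and no window of 50 bases was shared between any pair of members in these transcripts. At most 0.465% of a member's windows occurred in transcripts of any other gene on either strand. No member shared exonic bases with another annotated gene on either strand, although Pax6os1 lies antisense within the span of Pax6.

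Gli1 was checked first. By the authors' deposited table it was 27.8-fold higher with doxycycline at D5 (95% interval 19.9 to 38.7, adjusted p = 1.12e-81), a value in which the transgene and the endogenous gene are not separated. Intervals here come from an implied standard error (SE), the size of the authors' log2 fold change divided by the z of its p-value. By the authors' deposited table for D10, Gli1 stood at 0.57 on the log2 scale, with a 95% interval of 0.22 to 0.92 and an unadjusted p of 0.00161, short of the threshold after adjustment (adjusted p = 0.780). With the authors' p-values rescaled, an alternative described at Pax7, the adjusted p of Gli1 at D10 was 0.000219. All 8 neural progenitor markers examined, such as Sox1 and Nes, were tested on both days, with a summed level of 1818 CPM (read counts scaled to the library total) in D5 controls and 1254 in D10 controls. Vim and Nes made up most of these sums. Averaged over both groups, Vim (679 CPM at D5, 734 at D10) and Fabp7 (106 and 179) were higher at D10. The other markers were lower at D10, such as Sox1 (106 and 29.0 CPM), Sox2 (167 and 79.0) and Sox3 (113 and 21.4). The 9 neuron markers summed to 1059 CPM in D5 controls and 2260 in D10 controls.

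The first comparison asks how these genes stand while GLI1 is induced. By the authors' deposited table for D5, 2 of the 8 tested members fell (Pax3 and Msx2) at an adjusted p under 0.05, 0 rose and 6 did not pass. Of all 15108 genes at D5, 4.44% passed in either direction and 2.10% were lower. All 8 members had a log2 fold change below 0, with a median of -0.34, while 49.5% of all genes were below 0 and the median of all genes was 0.0015. At an unadjusted p under 0.05, 3 members stood lower, against 10.7% of all genes in either direction. Fewer cells of a type and less RNA per cell cannot be told apart in bulk RNA.

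Pax3, which specifies dorsal progenitors and neural crest, had the clearest fall. Its mean level was 25.2 CPM in D5 controls and 11.6 CPM in induced cells, as derived from the fold change and the average level in the authors' deposited table. The induced cells thus held 46.0% of the control level, and the controls stood 2.17-fold higher. The log2 fold change was -1.12 in the authors' deposited table, with a 95% interval of -1.72 to -0.52 and an adjusted p of 0.00988. Only 0.430% of the genes tested at D5 had a lower log2 fold change. The implied SE of Pax3 was 0.31, which is 2.28 times the median of the genes nearest to it in level, so its fall was measured less precisely than is usual at that level.

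Pax7, the closest relative of Pax3 and a dorsal factor with an overlapping domain, lay just beyond the threshold. Its derived level was 20.3 CPM in D5 controls and 15.6 CPM in induced cells. The log2 fold change was -0.38 in the authors' deposited table, with a 95% interval of -0.63 to -0.13 and an adjusted p of 0.0591. Its implied SE of 0.13 was 0.911 times the median of genes at its level, so the smaller difference was measured more tightly than that of Pax3. As an alternative, the authors' p-values were rescaled within bins of about 500 genes of like level, so that the median z in a bin matched that of unchanged genes, and Pax7 then passed (adjusted p = 0.0140), as did 5.12% of all genes at D5. The log2 fold change of Pax3 was lower than that of Pax7 by an amount of -0.74, with a 95% interval of -1.39 to -0.085 if the errors of the genes are independent.

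The Msx genes, which act downstream of bone morphogenetic proteins in the most dorsal progenitors, were scarce at D5. Msx2 had a derived level of 5.00 CPM in D5 controls and 2.95 CPM in induced cells, or 59.1% of control. Msx2 had a log2 fold change of -0.76 in the authors' deposited table, with a 95% interval of -1.23 to -0.29 and an adjusted p of 0.0346. With the authors' p-values rescaled in this way, Msx2 no longer passed (adjusted p = 0.0892). Msx3, which is confined to the dorsal neural tube, had the lowest point estimate of the set, -1.38 in the authors' deposited table. Its derived levels were only 1.74 CPM in controls and 0.670 CPM in induced cells. The interval for Msx3 ran from -3.17 to 0.42, its adjusted p was 0.768, and its implied SE of 0.92 was 2.57 times the median of genes at its level. Msx1 was scarcer still, at 0.978 CPM in controls and 0.795 CPM in induced cells. It had a log2 fold change of -0.30 in the authors' deposited table and an interval of -1.14 to 0.54, which contains the value of Msx2. No difference between Msx genes at D5 was resolved, since the intervals of all 3 differences contained 0.

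Of the intermediate genes, Pax6 and Dbx1 were the most abundant members at D5 and had narrow intervals, while Dbx2 was scarcer. Pax6, needed for the identity of intermediate progenitors, had derived levels of 147 CPM in D5 controls and 135 CPM in induced cells. Its log2 fold change was -0.12 in the authors' deposited table, with an interval of -0.31 to 0.070 and an adjusted p of 0.931. Dbx1, which directs commissural interneuron fate, stood at 173 CPM in controls and 153 CPM in induced cells. The log2 fold change of Dbx1 was -0.17 in the authors' deposited table, with an interval of -0.39 to 0.044 and an adjusted p of 0.732. Dbx2, its relative with a broader domain, was at 7.34 CPM in controls and 7.31 CPM in induced cells. Its log2 fold change was -0.0058 in the authors' deposited table, with an interval of -0.37 to 0.36. The intervals of Pax6, Dbx1 and Dbx2 all have lower ends above the point estimate of Pax3. The difference between Pax3 and Pax6 at D5 was -1.0 on the log2 scale, with an interval of -1.63 to -0.37.

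**Figure D1:**
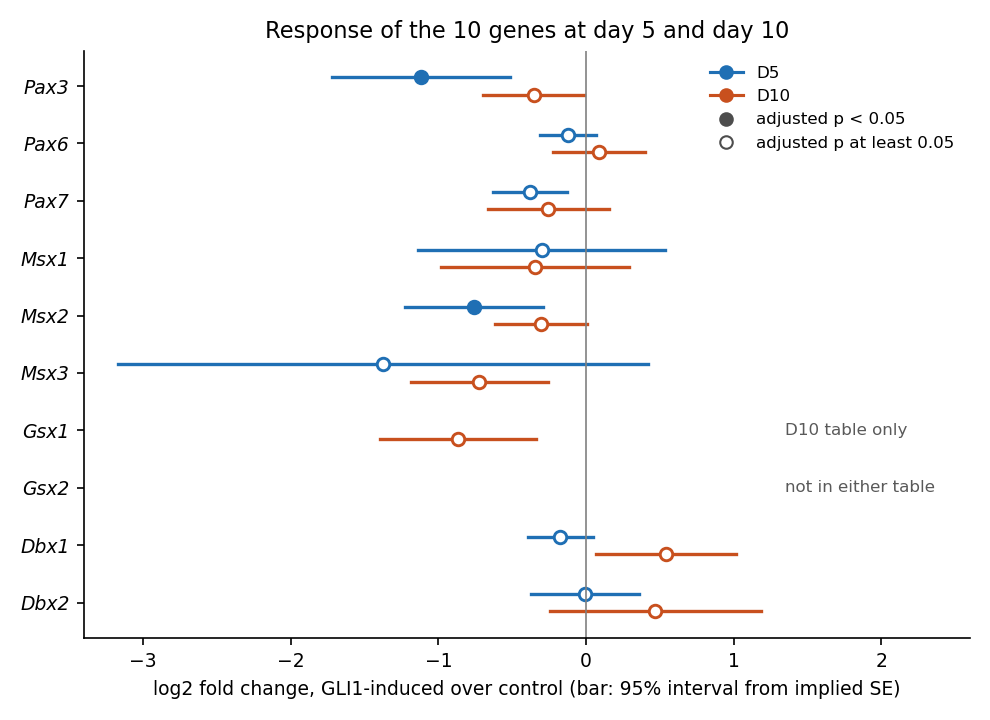
Log2 fold change of each gene, induced over control (x axis), at D5 (blue) and D10 (orange), with bars for the 95% interval from the implied SE; filled points have an adjusted p under 0.05. Pax3 at -1.12 and Msx2 at -0.76 are the filled points, both at D5, and Dbx1 at 0.54 lies to the right of 0 at D10.

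The second comparison asks what was left 5 days after washout. By the authors' deposited table for D10, 0 of the 9 tested members passed, whether higher or lower. Only 0.0826% of all 15744 genes passed at D10, and 0% passed in the lower direction. Of the 9 members, 6 had a log2 fold change below 0 and 3 above, with a median of -0.30, while 48.9% of all genes were below 0 and the median of all genes was 0.0027. At an unadjusted p under 0.05 there were 4 members, namely Gsx1, Msx3 and Pax3 on the lower side and Dbx1 on the higher. That share is 4 of 9, beside 1.53% of all genes at D10.

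Gsx1, a factor of dorsal interneuron progenitors, had the lowest log2 fold change of the set at D10, -0.87 in the authors' deposited table. Its derived level was 6.57 CPM in controls and 3.59 CPM in induced cells, or 54.7% of control. Its interval ran from -1.40 to -0.34, with an unadjusted p of 0.00127 and an adjusted p of 0.688. Only 0.114% of the genes tested at D10 had a lower log2 fold change. Gsx1 was not tested at D5, so how it stood during induction is not known.

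Msx3 followed, with derived levels of 10.6 CPM in D10 controls and 6.42 CPM in induced cells. Its log2 fold change was -0.72 in the authors' deposited table, with an interval of -1.19 to -0.26 and an unadjusted p of 0.00223 (adjusted p = 0.892). At this day Msx3 was more abundant than at D5, and its interval was narrower. Msx2 at -0.30 and Msx1 at -0.34 were smaller in size in the authors' deposited table, with upper interval ends of 0.0089 and 0.29. Msx2 stood at 15.5 CPM in controls and 12.5 CPM in induced cells, and Msx1 at 4.21 and 3.31 CPM.

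Pax3 stood at 24.7 CPM in D10 controls and 19.3 CPM in induced cells. Its log2 fold change was -0.36 in the authors' deposited table, with an interval of -0.70 to -0.013 and an unadjusted p of 0.0419. Pax7, at 10.6 CPM in controls and 8.85 CPM in induced cells, had a log2 fold change of -0.25 in the authors' deposited table and an interval of -0.66 to 0.15. The gap between Pax3 and Pax7 seen at D5 was -0.10 at D10, with an interval of -0.63 to 0.43.

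The Dbx genes lay on the other side of 0. Dbx1 had derived levels of 34.6 CPM in D10 controls and 50.3 CPM in induced cells, which is 1.46-fold higher. Its log2 fold change was 0.54 in the authors' deposited table, with an interval of 0.066 to 1.02 and an unadjusted p of 0.0256. The implied SE of Dbx1 was 1.87 times the median of genes at its level, larger than for 98.0% of those genes. Dbx2 stood at 1.84 CPM in controls and 2.54 CPM in induced cells, with a log2 fold change of 0.47 in the authors' deposited table and an interval of -0.24 to 1.18. Pax6 stood at 34.7 CPM in controls and 36.9 CPM in induced cells, with a log2 fold change of 0.09 in the authors' deposited table and an interval of -0.23 to 0.40.

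These D10 values depend on how the p-values are read. The median p-value over all genes at D10 was 0.684 in the authors' deposited table, above the 0.5 that unchanged genes would give. With the authors' p-values rescaled within bins of level, 3 members passed: Msx3 (adjusted p = 0.00220), Gsx1 (0.00466) and Dbx1 (0.00790). That is 3 of 9, beside 0.756% of all genes at D10 with the same rescaling. The first pair was lower and Dbx1 higher in induced cells. Pax3 did not pass with the authors' p-values rescaled (adjusted p = 0.0848).

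**Figure D2:**
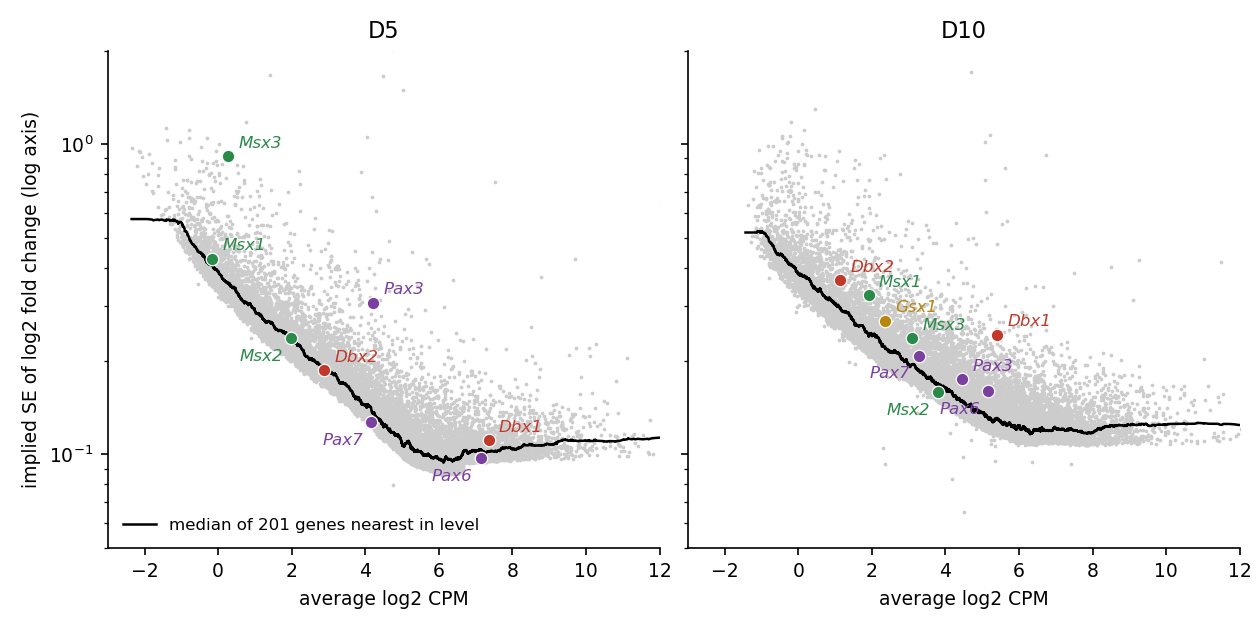
Implied SE of the log2 fold change (y axis, log scale) against average log2 CPM (x axis) for the genes tested on each day (grey), with the running median over genes of like level (black) and the members coloured by family. At D5, 5 of 8 members lie above the line, Msx3 and Pax3 furthest at 2.57 and 2.28 times it, and at D10, 8 of 9 do, Dbx1 furthest at 1.87 times it; genes outside the axes or without a finite SE, 237 at D5 and 303 at D10, are not drawn.

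The third comparison asks whether the response of a member differed between the days, whose libraries are separate samples. Of the 8 members tested on both days, 0 differed at an adjusted p under 0.05, beside 1.24% of the 14792 genes compared, and 2 had an unadjusted p under 0.05, beside 4.91% of those genes. Dbx1 had the smallest p, computed from the authors' deposited table on each day: its log2 fold change was 0.72 higher at D10 than at D5, with an interval of 0.19 to 1.24 (p = 0.00736, adjusted p = 0.322). Dbx1 was also 1 of the 3 members, with Dbx2 and Pax6, whose sign differed between days. For Pax3 the log2 fold change was 0.76 higher at D10, with an interval of 0.070 to 1.46 (p = 0.0311, adjusted p = 0.790, computed from the authors' values). With the median SE of genes of like level in place of each gene's own, the adjusted p was 0.00154 for Dbx1 and 0.0109 for Pax3, and 1.82% of all genes passed. This replaced an SE that was 2.28 times the median for Pax3 at D5 and 1.87 times it for Dbx1 at D10, so both p-values fell through the replacement itself. With rescaled SEs the adjusted p was 0.000134 for Dbx1 and 0.202 for Pax3, and 2.44% of all genes passed. For Msx1 the difference was -0.044, and its interval of -1.10 to 1.01 spans changes of 2-fold in either direction.

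The families also stood at different levels on the 2 days in cells that had never seen doxycycline. These levels come from tables that were normalized separately and are described with no test. In controls the 3 Msx genes were higher at D10 than at D5. Msx3 was 6.10-fold, Msx1 4.30-fold and Msx2 3.09-fold higher. Dbx1, Pax6 and Dbx2 were lower at D10, by 5.00-fold, 4.22-fold and 4.0-fold, and Pax7 was 1.92-fold lower. Pax3 stood at 0.979 times its D5 level. Genes of the intermediate wall were thus lower and the most dorsal genes higher in the later controls.

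Divided by transcript length, so that genes can be set beside each other, Dbx1 led the D5 controls with 82.7 CPM per kb. Pax6 followed with 33.1 CPM per kb, Pax3 with 6.53, Pax7 with 3.46, Dbx2 with 2.12, Msx2 with 2.04, Msx3 with 0.738 and Msx1 with 0.505. Dbx1 thus stood 39.0-fold above its relative Dbx2 in D5 controls. In D10 controls Dbx1 was again highest, at 16.5 CPM per kb. Pax6 (7.85 CPM per kb), Pax3 (6.39) and Msx2 (6.30) came next, then Msx3 (4.50), Gsx1 (3.70), Msx1 (2.17), Pax7 (1.80) and Dbx2 (0.530). Without values per library, it cannot be said which neighbours in these orders differ beyond their spread.

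**Figure D3:**
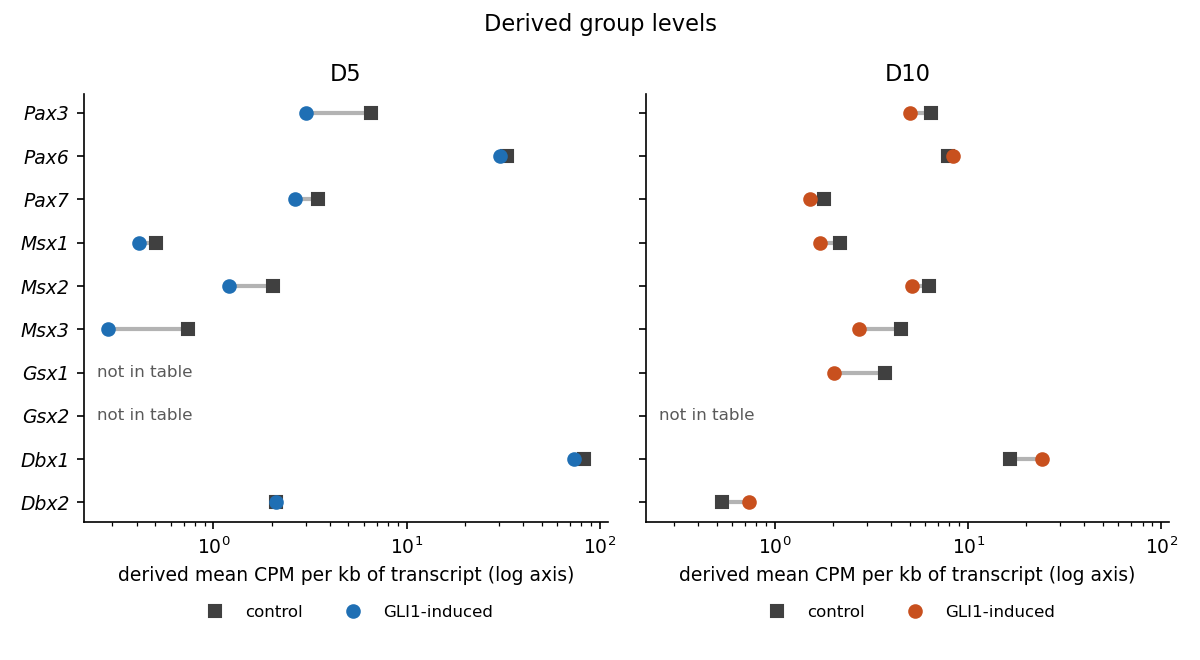
Derived mean level of each gene in CPM per kb of its longest coding transcript (x axis, log scale) in control (squares) and induced samples (circles) at D5 and D10. Dbx1 and Pax6 are highest at D5 and nearly level between groups, while Pax3 and Msx2 are shifted left in induced cells, Pax3 from 6.53 to 3.01.

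Genes that act with or against the members were examined as lists chosen by function. Ventral progenitor and floor plate genes, several of which encode repressors of Pax and Dbx genes, rose at D5. By the authors' deposited table, 9 of the 10 tested were higher and 0 lower, and the median log2 fold change was 2.06. The smallest p belonged to Nkx2-9 at 5.72, Spon1 at 1.84 and Nkx6-2 at 2.68 (log2 fold changes in the authors' deposited table). At D10, 4 of 11 were higher and 0 lower, and the median was 0.51. Among them were Shh at 1.41, Ntn1 at 0.93 and Spon1 at 0.95 in the authors' deposited table. Olig2 did not pass on either day, at 0.34 at D5 and -0.45 at D10 in the authors' deposited table. Nkx6-2 encodes a repressor of Dbx1, and at D5, beside its log2 fold change of 2.68, that of Dbx1 had the interval of -0.39 to 0.044 given above.

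By the authors' deposited table, 5 of 13 tested genes among the other dorsal and intermediate progenitor factors fell at D5 and 1 rose. Their median was -0.46, and that of the members -0.34. The falls with the smallest p were Prdm13 at -1.47, Zic1 at -1.15 and Prdm12 at -1.56 in the authors' deposited table. The gene that rose was Neurog2, at 0.68. Sp8, Irx3 and Irx5, the most abundant of this list, did not pass, at -0.081, -0.050 and -0.059. At D10, 0 of 15 passed, and the median was -0.11. Dorsal and intermediate interneuron factors are made by the daughters of these progenitors. In the authors' deposited table for D5, 4 of 8 tested fell and 0 rose, around a median of -0.64. The falls in the authors' deposited table included Pou4f1 at -0.93, Lhx1 at -1.50 and Lhx5 at -1.13. Another 4 did not pass and differed in direction. Lmx1b (1.02, adjusted p = 0.0583) and Isl1 (0.73) lay above 0, and Pax2 (-0.36) and En1 (-0.35) below 0, by the authors' values. At D10, 0 of 17 passed, and the median was -0.23.

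Roof plate and dorsal signals, a list of bone morphogenetic protein, Wnt and Rspo genes with Lmx1a, were mixed at D5. Of 11 tested, 2 rose and 0 fell by the authors' deposited table, and the median was -0.068. Bmp7, a bone morphogenetic protein, stood at 1.33 and Bmp5, with an average of only 0.572 CPM, at 1.97 in the authors' deposited table. The other 9 did not pass, and 6 of the 11 were below 0, the lowest being Wnt3a at -1.01. Any part of these signals in the difference of Msx2 was not tested. At D10, 0 of 13 passed, while 11 of 13 were below 0 and the median was -0.40, next to -0.30 for the members.

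**Figure D4:**
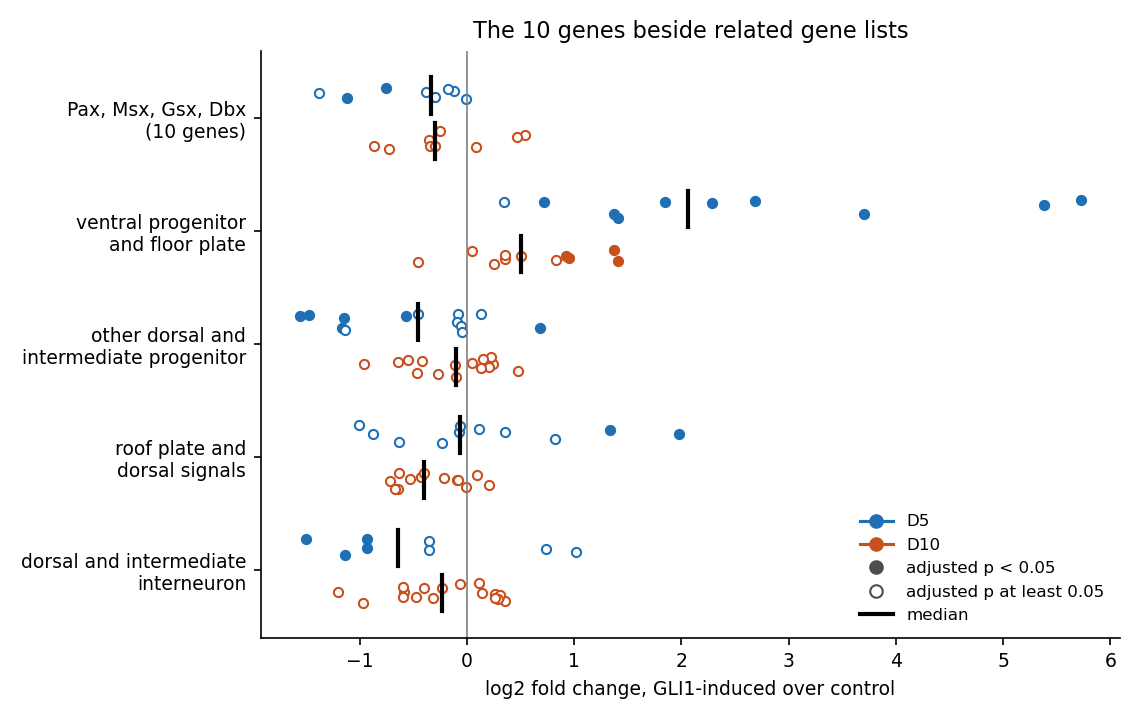
Log2 fold change (x axis) of the members and of related gene lists, 1 point a gene, at D5 (blue) and D10 (orange); filled points have an adjusted p under 0.05 and black bars are medians. The members' medians of -0.34 and -0.30 lie left of 0 on both days, and the ventral medians of 2.06 and 0.51 lie right of 0. At D10, 1 ventral gene, Olig2 at -0.45, lies left of 0.

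Other cell types that use these factors were looked at through their markers, in levels derived as above. Neural crest uses Pax3, Pax7, Msx1 and Msx2. Of its 11 markers 9 were tested at D5, without Sox10 and Foxd3, and 1 was lower (Tfap2b, also a dorsal interneuron gene, at -1.49 in the authors' deposited table). The summed neural crest level was 90.4 CPM in D5 controls and 95.1 in induced cells. Most of it came from Ets1, Sox9, Ngfr and Twist1, at averages of 27.6, 22.5, 20.3 and 11.3 CPM. Of the scarcer crest markers that did not pass, Tfap2a was at -0.73, Erbb3 at -0.49, Snai2 at -0.28 and Snai1 at 0.77 in the authors' deposited table. Surface ectoderm and its derivatives can hold Msx genes. Of its 10 tested markers 3 fell at D5, led by Esrp1 at -0.71 in the authors' deposited table, and the summed level went from 337 CPM in controls to 260 in induced cells. In D10 controls that sum was 1492 CPM. Most of it came from the epithelial genes Krt18, Krt8 and Cdh1, at D10 averages of 526, 477 and 256 CPM. Trp63, Tfap2c, Krt14 and Krt5 averaged only 3.21, 2.14, 1.94 and 0.961 CPM at D10. The summed surface ectoderm level at D10 was 1437 CPM in induced cells, and 0 of 12 passed.

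Of 12 mesoderm markers, 3 were tested at D5, and the somite genes Tbx6, Meox1 and Myf5, from a lineage that also makes Pax3, were not. The 3 differed in direction: Pdgfra fell, at -0.81, T rose, at 1.85, and Foxc1 did not pass, at 0.046, in the authors' deposited table. The sum of the 3 went from 108 CPM in controls to 64.7 in induced cells and was mostly Pdgfra, with an average of 81.7 CPM against 3.81 for Foxc1 and 0.996 for T. Forebrain, where Gsx2 and Pax6 are active, was little represented. Of its 9 markers 3 were tested at D5, with a sum of 2.84 CPM in controls and 2.87 in induced cells. Neuron markers fell in 4 of 9 cases by the authors' deposited table for D5, led by Nefm at -1.61 and Nefl at -1.11. The other 5 neuron markers did not pass. Map2 (-0.28) and Dcx (-0.0026) lay below 0, and Elavl3 (0.054), Elavl4 (0.11) and Rbfox3 (0.53) above 0, by the authors' values. The sum of the 9 neuron markers went from 1059 to 776 CPM. Neural progenitor markers had 0 of 8 passing on either day, with sums of 1818 and 1825 CPM in control and induced cells at D5. Of 9 pluripotency markers, 2 fell at D5, led by Dppa5a at -0.73 in the authors' deposited table, and the sum of the 9 went from 161 to 117 CPM. That sum was mostly Dnmt3b, with an average of 105 CPM against 5.06 for Pou5f1 and 0.736 for Nanog. The part of these cell types in the members' differences was not tested.

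Promoters in RefSeq (GRCm38.p6), from 250 bases before to 50 after the start, were searched for the GLI consensus GACCACCCA or its reverse complement TGGGTGGTC. Pax3 was not searched. Of the 10 promoters listed for the other 9 members, 0 held it with up to 1 mismatch, beside 6.74% of all 32851 promoters. An exact match was in 0.253% of all promoters. These letters are not in these windows, and enhancers were not searched.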

How the data were processed

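Libraries were made with a TruSeq RNA kit that does not mark strand, while reads are called stranded, per the labels' protocols, so the strand setting of the counting is uncertain. Aligner, counting, test and build: not given in the sources used here. Per the file headers, the authors deposited for each Entrez gene a log2 fold change, an average log2 CPM, a p-value and an adjusted p-value. The averages, raised from base 2, sum to 1001540 CPM at D5 and 1001340 at D10, so they are means of CPM; base 2 was also assumed for the fold change. The adjusted p equals a Benjamini-Hochberg adjustment within 3.41e-05.

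Computed here, with Python 3.11.15, numpy 2.4.6, pandas 2.3.3 and scipy 1.17.1: group levels, from the average and the fold change, assuming equally many libraries per group; implied SEs and 95% intervals, by a normal reference; and a two-sided test of the difference between days, adjusted over 14792 genes. The test between days and the rescaling were tested on simulated data. Implied SEs are no replicate SDs. Rescaling divided z, in bins of about 500 genes of like average level, by a factor setting its median size to that of a standard normal, which assumes that most genes are unchanged.

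Symbols came from RefSeq (94.6% of genes on either day). Members, 4 gene lists and 7 marker lists were chosen with earlier results of these data known. All members are named, with Gli1 and up to 3 called genes per list by smallest p. Further list genes are named as examples, as not tested, or to show what made up a sum, did not pass or went the other way. Counts use an adjusted p under 0.05. Transcript length is that of the longest coding transcript in GENCODE M21. Depth per sample is unknown. The homeobox of 1 member is not reported here.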

Additional observations from a re-analysis of the deposited data

How the results depend on the processing

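No paired analysis was possible because the sources used here hold no values per library, and leaving out each replicate was not run for the same reason. At D5 the number of members that passed, 2, was 1 at an adjusted p under 0.01, 1 with a minimum of 2-fold (both Pax3) and 0 with Holm's adjustment. It was 3 at an adjusted p under 0.1 and 2 with rescaled p-values, where Pax7 took the place of Msx2. Of all genes at D5, 4.44% passed by the main call and 5.12% with rescaled p-values. The share of all genes at the other settings was not worked out, so these counts have no background beside them. At D10 the count of 0 became 3 with rescaled p-values (0.756% of all genes), and stayed 0 under the other 6 alternatives run. Of those 6, an adjusted p under 0.01, Holm's adjustment and the 2-fold minimum are stricter and could only leave a count of 0 unchanged. Between days the count of 0 became 2 with the median SE of the genes nearest in level (1.82% of all genes). It became 1 with rescaled SEs (2.44% of all genes) and stayed 0 under the other 3. Of those 3, an adjusted p under 0.01 could only leave it at 0. The cause of the changed counts was not tested. Centring on the median of all genes turned no member's direction and changed no call. Intervals were widest for Msx3 and Msx1 at D5, where both were scarce and the SE of Msx3 was also 2.57 times the median at its level; the depth behind them is unknown.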
